A study of Homo sapiens with 3 samples.

Results

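The cathepsins are the main proteases of the lysosome, and 10 genes that encode them were read in MCF10A cells, a breast epithelial line that grows without limit in culture but forms no tumours. The members were chosen by name as CTSA, CTSB, CTSC, CTSD, CTSH, CTSK, CTSL, CTSS, CTSV and CTSZ, and all 10 were found by Ensembl identifier among the genes of the deposited table, of which 62700 are in the GENCODE annotation and 54 are not. RNA was taken at 27 h after seeding from 3 replicates of untreated cells that carried an empty vector of the doxycycline-inducible Tet-One system, selected with puromycin and harvested without doxycycline, and each library started from 300 ng of RNA, from which ribosomal RNA was removed. All 3 replicates belong to 1 condition and to batch 1, which leaves no groups to compare, and nothing in the labels says whether the replicates came from separate cultures. The values are TPM, a measure of transcript abundance, which are read numbers per gene, divided by a gene length and scaled so that a library sums to 1000000.

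Cathepsins are made as inactive precursors, tagged with mannose 6-phosphate in the Golgi, carried to the acidic lysosome by receptors for that tag and activated there by removal of a propeptide. Most are cysteine proteases of the papain family (CTSB, CTSC, CTSH, CTSK, CTSL, CTSS, CTSV and CTSZ), CTSD is an aspartic protease, and CTSA is a serine carboxypeptidase that also protects the lysosomal enzymes beta-galactosidase and neuraminidase. Epithelial cells use them to degrade endocytosed and autophagic protein, and part of the protein is secreted and can act on the matrix outside the cell. Cystatins and stefins, small inhibitor proteins, hold cysteine cathepsins in check.

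The 3 libraries held 15273329, 15446347 and 11166546 reads on annotated genes, when the smallest step in each column is taken as 1 read. Replicate 3 stood apart from the others. RN7SL1, a short non-coding RNA, was at 49293, 56610 and 150632 TPM in replicates 1, 2 and 3, and protein-coding genes held 91.5%, 89.8% and 79.6% of all TPM. Over protein-coding genes that averaged 1 TPM or more, replicate 3 differed from the mean of the others by a median of -0.22 on the log2 scale. The basal epithelial markers were high, with 8 of 8 at or above 1 TPM and KRT5, a keratin of basal cells, at 6612 ± 889.9 TPM (SD, n = 3). Of 6 luminal markers, 3 were at or above it, with KRT18 highest at 413 ± 44.8 TPM (SD, n = 3).

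Of the 10 cathepsin genes, 9 were at or above 1 TPM by the mean of the replicates, the cutoff of the study's metabolic models, and the same 9 were so in each replicate. The background share at this cutoff was 24.9% of all listed genes and 56.7% of the 20046 protein-coding genes, and 55.2% of protein-coding genes were at or above it in every replicate. CTSS was below 1 TPM throughout. The members summed to 476, 471 and 390.3 TPM in replicates 1, 2 and 3, a mean of 446 ± 47.9 TPM (SD, n = 3). Their median by deposited TPM was 21.6 TPM, against 3.75 TPM for all protein-coding genes and 24.9 TPM for the protein-coding genes at or above 1 TPM. With the canonical length described further on, the median of the members was 77.5 TPM. The medians of protein-coding genes were not taken on that scale, so the place of the members among them holds for deposited TPM only. From CTSB to CTSS the deposited means spanned a 239-fold range, and CTSB and CTSC together held 62.5% of the summed mean.

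**Figure D1:**
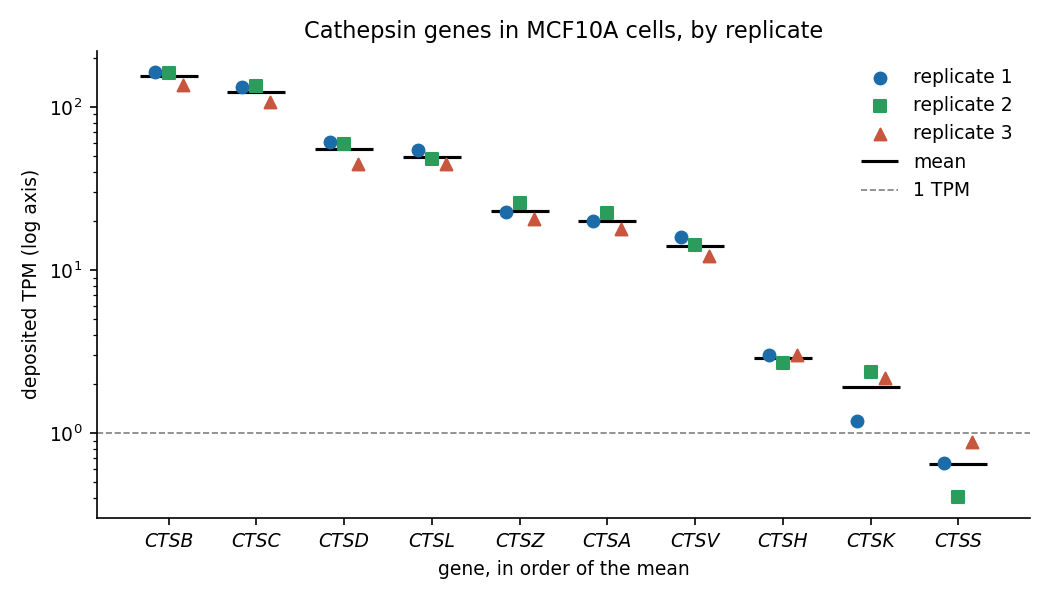
TPM of the 10 cathepsin genes on a log axis, in order of the mean, with a point for each of the 3 replicates and a bar for their mean. CTSB and CTSC lie above 100 TPM in each replicate, CTSH and CTSK between 1 and 4 TPM, and CTSS below the dashed line at 1 TPM.

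CTSB and CTSC had the highest levels. CTSB (ENSG00000164733, chr8:11842524-11869533 of hg38, minus strand), an endopeptidase that also removes dipeptides from the carboxyl end, was measured at 164, 162 and 137 TPM, a mean of 154 ± 14.9 TPM (SD, n = 3). CTSC (ENSG00000109861, chr11:88265069-88359684, minus strand), also called dipeptidyl peptidase I, was at 132, 134 and 107 TPM, a mean of 124 ± 14.8 TPM (SD, n = 3). In both genes replicate 3 was the lowest, and CTSB was above CTSC in 3 of 3 replicates. Their means ranked 917 and 1216 among the 20046 protein-coding genes.

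CTSC is known for activating the serine proteases stored in the granules of leukocytes. Of those, GZMA, GZMB, ELANE, PRTN3 and CTSG were listed with 0 reads in every replicate, which allows between 0.407 and 0.751 TPM at most, taking a limit of 3 reads for counting error only. The leukocyte markers were mixed. PTPRC, the common leukocyte antigen, had 8 reads in all libraries, from 0.0621 to 0.0792 TPM, and CD3E, MS4A1 and AIF1 had none. Of the 8 leukocyte markers 2 were at or above 1 TPM, CSF1R at 3.49 ± 0.0552 TPM and CD14 at 1.96 ± 0.901 TPM (SD, n = 3 each), and the summed markers lay between 5.33 and 7.81 TPM.

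CTSD and CTSL came next and could not be placed in order. CTSD (ENSG00000117984, chr11:1752752-1764573, minus strand), the main aspartic protease of lysosomes, was measured at 61.3, 59.2 and 44.5 TPM, a mean of 55.0 ± 9.14 TPM (SD, n = 3). CTSL (ENSG00000135047, chr9:87724051-87731469, plus strand), an endopeptidase, was at 54.8, 48.0 and 44.7 TPM, a mean of 49.2 ± 5.13 TPM (SD, n = 3). CTSD was above CTSL in replicates 1 and 2 and below it in replicate 3. The mean difference was 0.15 ± 0.15 on the log2(TPM + 1) scale (SD, n = 3), no larger than its spread.

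CTSV (ENSG00000136943, chr9:97029677-97156556, minus strand), a close paralog of CTSL, was measured at 15.9, 14.2 and 12.3 TPM, a mean of 14.1 ± 1.79 TPM (SD, n = 3). It is known from thymus, testis and cornea. CTSL was above CTSV in every replicate, and the ratio of the means was 3.48 by deposited TPM and 9.37 with the canonical length described further on. Since both genes descend from a common ancestor, their sequences were compared to see whether reads could be split between them. The longest run common to both canonical transcripts was 40 bases long and lay in the coding part of each.

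CTSL, bases 720 to 759 of the canonical transcript: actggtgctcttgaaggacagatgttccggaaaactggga
CTSV, bases 512 to 551 of the canonical transcript: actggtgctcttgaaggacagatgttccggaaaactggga

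No window of 50 bases was thus common to CTSL and CTSV. Of the 1605 such windows of the CTSL transcript, 16 (0.997%) were found in other genes, all of which are CTSL pseudogenes. The share was 0% for CTSA, CTSC, CTSH, CTSK and CTSZ, 2.25% for CTSB, 0.437% for CTSS and 0.394% for CTSV. Only CTSD had a large share, at 61.3%, all of it in 1 gene.

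The promoters of the same paralogs also held a common run, of 23 bases, the longest among the 21 pairs of the 7 cathepsin promoters found in RefSeq (GRCh38.p14, 250 bases before to 50 bases after the start). The other pairs shared at most 13 bases. The run, in capitals, contains the letters CCAAT and begins 96 bases before the start of CTSL and 86 bases before that of CTSV.

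CTSL, chr9:87726004-87726063, plus strand: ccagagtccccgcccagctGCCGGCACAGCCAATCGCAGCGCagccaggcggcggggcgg
CTSV, chr9:97039188-97039247, minus strand: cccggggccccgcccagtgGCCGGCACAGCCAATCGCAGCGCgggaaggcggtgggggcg

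CTSZ and CTSA stood at similar levels. CTSZ (ENSG00000101160, chr20:58985686-59008238, minus strand), a carboxypeptidase also known as cathepsin X, was measured at 22.8, 25.8 and 20.5 TPM, a mean of 23.1 ± 2.65 TPM (SD, n = 3). CTSA (ENSG00000064601, chr20:45890144-45898949, plus strand) was at 20.1, 22.4 and 17.8 TPM, a mean of 20.1 ± 2.31 TPM (SD, n = 3). The ranges of both genes overlap, but CTSZ was the higher in 3 of 3 replicates, by 0.19 ± 0.012 on the log2(TPM + 1) scale (SD, n = 3). The partners of CTSA in its complex, GLB1 (beta-galactosidase) and NEU1 (neuraminidase), were at 53.0 ± 2.49 and 15.9 ± 1.52 TPM (SD, n = 3 each). With the canonical length described further on, CTSA was at 58.7, GLB1 at 43.1 and NEU1 at 17.9 TPM by the mean, so that GLB1 was above CTSA by deposited TPM only.

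CTSH, CTSK and CTSS were low. CTSH (ENSG00000103811, chr15:78921058-78949574, minus strand), an aminopeptidase, was measured at 3.03, 2.69 and 3.002 TPM, a mean of 2.91 ± 0.188 TPM (SD, n = 3). CTSK (ENSG00000143387, chr1:150794880-150809577, minus strand), which degrades collagen in the osteoclasts of bone, was at 1.19, 2.36 and 2.18 TPM from 29, 59 and 45 reads, a mean of 1.91 ± 0.628 TPM (SD, n = 3). Replicate 1 was the lowest, and no osteoclast marker reached 1 TPM (0 of 4, the highest being ACP5 at 0.2498 ± 0.169 TPM, SD, n = 3). CTSS (ENSG00000163131, chr1:150730079-150765957, minus strand), which cleaves the invariant chain of MHC class II in antigen-presenting cells, was at 0.653, 0.408 and 0.877 TPM from 14, 9 and 16 reads, a mean of 0.646 ± 0.234 TPM (SD, n = 3). CTSK and CTSS are neighbours on chromosome 1.

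The listed genes of MHC class II antigen presentation were also low. Of 6 genes of the MHC class II pathway 1 reached 1 TPM by the mean, HLA-DMA at 1.29 ± 0.310 TPM (SD, n = 3). CD74, the invariant chain itself, was at 0.346 ± 0.0890 TPM (SD, n = 3) from 16 reads in all, and HLA-DMB, with 32.5% of its canonical bases shared with a gene on its strand, had 0 reads. HLA-DRB1 and CIITA, the activator of the class II genes, were at 0.0883 ± 0.0831 and 0.0250 ± 0.0238 TPM (SD, n = 3 each) from 3 and 6 reads in all. HLA-DRA was called differently between replicates, at 0.154, 1.201 and 0.725 TPM from 1, 8 and 4 reads.

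The order of the levels was the same in every replicate for 8 of the 9 neighbouring pairs, all except CTSD and CTSL, and in these 8 the mean difference was above its SD. The narrowest of them relative to its spread was CTSH over CTSK, at 0.45 ± 0.38 on the log2(TPM + 1) scale (SD, n = 3). The widest step by deposited TPM was between CTSV and CTSH, at 1.95 ± 0.19 (SD, n = 3). The exact two-sided sign-flip permutation test over 3 replicates cannot give a p below 0.25, which it gave for the 8 pairs, with 0.5 for CTSD and CTSL. It can therefore call no pair.

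Levels of different genes can be compared only per length, and the length behind the deposited values has a large part in this order. The values returned whole reads (within 0.01 of a whole number for 100% of annotated genes) when each gene was given the length of its longest annotated transcript. For 7 of the 10 cathepsins that transcript was at least 2 times as long as the canonical one, which was so for 5.6% of protein-coding genes and for 6.69% of those that averaged 1 TPM or more. The ratio was 7.22 for CTSZ (10849 against 1502 bases), 4.04 for CTSC (7564 against 1870), 3.57 for CTSA, 3.36 for CTSH, 2.84 for CTSK, 2.77 for CTSL and 2.15 for CTSD. It was 1.12 for CTSB, 1.04 for CTSS and 1.03 for CTSV.

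With the same reads divided by the canonical length and rescaled to the same total, CTSC was highest. It was at 434, 439 and 360.1 TPM on this canonical length scale, a mean of 411 ± 44.1 (SD, n = 3), and CTSB followed at 149, 147 and 127, a mean of 141 ± 11.9 (SD, n = 3). CTSC was thus above CTSB in 3 of 3 replicates, by 1.54 ± 0.039 on the log2 scale with 1 added (SD, n = 3), where the deposited TPM had CTSB above CTSC by 0.31 ± 0.038 (SD, n = 3). By reads alone CTSC was also first, with 14366 against 9814 reads over the 3 libraries.

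CTSZ went from the fifth to the third place, and CTSD from the third to the fifth. CTSZ was at 134, 151 and 123 TPM on the canonical length scale, a mean of 136 ± 14.2 (SD, n = 3). CTSZ could not be told apart from CTSB, which was above it in replicates 1 and 3 and below it in replicate 2. CTSL was at 111 ± 10.6, CTSD at 96.4 ± 14.9 and CTSA at 58.7 ± 6.12 TPM on that scale (SD, n = 3 each). CTSV, CTSH, CTSK and CTSS kept the last 4 places in this order, at 11.9 ± 1.38, 7.997 ± 0.571, 4.43 ± 1.47 and 0.548 ± 0.205 TPM (SD, n = 3 each). From CTSC to CTSS the means then spanned a 749-fold range. The step from CTSV to CTSH was narrower here, at 0.52 ± 0.19 on the log2 scale with 1 added (SD, n = 3). The widest step on this scale was CTSA over CTSV, at 2.21 ± 0.15 (SD, n = 3).

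Divided by the union of all annotated exons instead, the order was CTSB, CTSD, CTSC, CTSL, CTSA and CTSZ, followed by the same last 4 genes. CTSB was at 81.7 ± 9.98, CTSD at 57.0 ± 10.8 and CTSC at 50.6 ± 7.30 TPM on this scale (SD, n = 3 each). The 4 lowest genes thus held their places under all 3 lengths, while the order of the first 6 differed between them. TPM values do not show which transcript of a gene the reads came from.

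**Figure D2:**
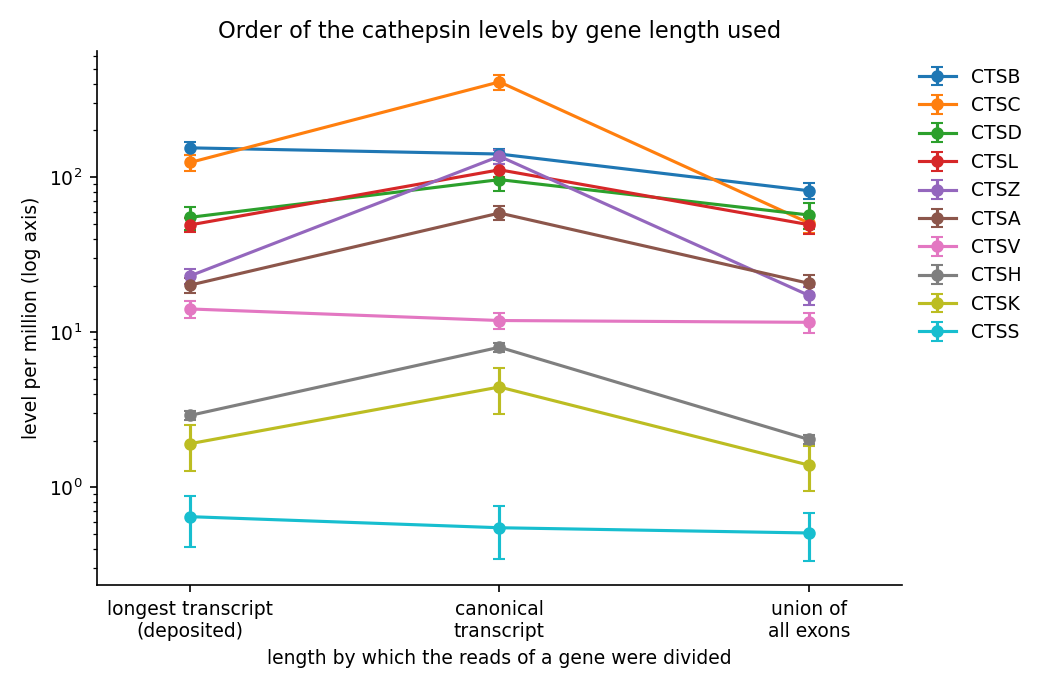
Level in TPM of the 10 cathepsin genes on a log axis when the reads are divided by the longest transcript (the deposited TPM), by the canonical transcript or by the union of all exons, as mean with SD of 3 replicates. The line of CTSC rises from 124 to 411 and that of CTSZ from 23.1 to 136 with the canonical length, and the last 4 genes stay in order.

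CTSD is also affected by shared exons. Of its canonical transcript, 62.1% (1277 bases) is annotated on the same strand as part of ENSG00000250644, a protein-coding gene that GENCODE marks as read-through. That gene received 11, 3 and 3 reads in replicates 1, 2 and 3, at 0.518, 0.137 and 0.166 TPM, where CTSD received 1422, 1412 and 879. In the whole table there were 342 protein-coding genes with no exon base of their own on their strand, and 342 of 342 were listed with 0 reads. If all reads of CTSD fell on the unshared bases of its canonical transcript, its level would be 254 ± 39.4 TPM (SD, n = 3), second to CTSC. The deposited level of CTSD is for this reason uncertain.

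The other members shared no exon with another gene on their own strand. On the opposite strand, 24.1% of the canonical transcript of CTSA overlaps PLTP and ENSG00000271984, at 0.121 and 0.131 TPM by the mean. None of the canonical transcript of CTSZ does, but the union of its exons overlaps 6136 bases of NELFCD, which was at 101 ± 12.4 TPM (SD, n = 3). Whether strand was used in counting is not given in the sources used here.

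Replicates differed in the same manner for the higher members. Replicate 3 was the lowest for 7 of 10 cathepsins, against 78.5% of the protein-coding genes that averaged 1 TPM or more. These 7 were CTSB, CTSC, CTSD, CTSL, CTSZ, CTSA and CTSV, and their log2 difference of replicate 3 from the mean of the others lay between -0.20 for CTSL and -0.44 for CTSD. CTSH, CTSK and CTSS, at 0.073, 0.37 and 0.76, went the other way, on 317, 133 and 39 reads in all. The value of CTSH is below its counting error of 0.14, that of CTSS rests on a counting error of 0.41, and CTSK was highest in replicate 2. With protein-coding genes alone in the total, replicate 3 was still the lowest for CTSB, at 179, 181 and 172 TPM, and CTSC, at 144, 149 and 135. This was also so for CTSD, at 67.0, 66.0 and 56.0, and CTSV, at 17.3, 15.8 and 15.4 TPM. It was no longer so for CTSL, at 59.8, 53.5 and 56.1 TPM. Nor was it for CTSZ, at 24.9, 28.8 and 25.8, and CTSA, at 22.0, 25.0 and 22.4 TPM.

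The median SD of log2(TPM + 1) over the members was 0.17, near the 0.16 of protein-coding genes at or above 1 TPM. With protein-coding genes alone in the total it was 0.10. The SD of log2 TPM was above the counting error of the reads for 9 of 10 members. It was 0.14 against 0.026 for CTSB, 0.25 against 0.042 for CTSD, 0.54 against 0.23 for CTSK and 0.56 against 0.41 for CTSS. In CTSH it was 0.095, below the counting error of 0.14.

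**Figure D3:**
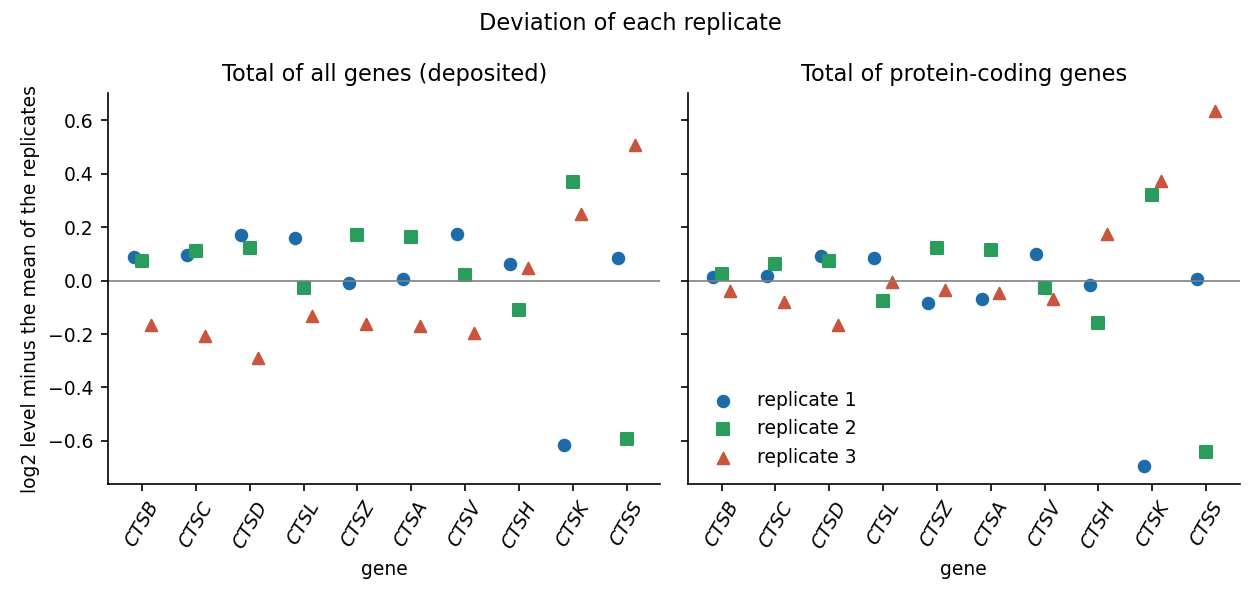
Difference of each replicate from the mean of the 3 replicates on the log2 scale for the 10 cathepsin genes, with all genes (left) or protein-coding genes only (right) in the total. On the left the triangles of replicate 3 are the lowest for the 7 genes with the highest means, and on the right most points of these genes draw closer to 0, while CTSK and CTSS spread widest in both.

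Beyond the 10 members, 5 other genes are named as cathepsins. CTSF and CTSO, further papain-like proteases, were at 6.84 ± 1.24 and 2.003 ± 0.343 TPM (SD, n = 3 each). CTSE, an aspartic protease, was below 1 TPM in each replicate at 0.608, 0.526 and 0.715 TPM. CTSG of neutrophils and CTSW of cytotoxic lymphocytes had 0 reads in each replicate, which allows at most 0.492 TPM.

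Of the genes listed as inhibitors of cysteine cathepsins, 3 were high and the others near or below 1 TPM. Of 13 genes, 4 were at or above 1 TPM by the mean and 6 had 0 reads (CST1, CST2, CST4, CST5, CST7 and KNG1). CSTA, a stefin of squamous epithelium, was at 239.8, 231 and 218 TPM, a mean of 229.7 ± 10.8 TPM (SD, n = 3), above every cathepsin in each replicate by deposited TPM. CST3, the secreted cystatin C, was at 76.3 ± 7.99 TPM and CSTB, a ubiquitous stefin, at 35.7 ± 3.62 TPM (SD, n = 3 each). With the canonical length, these became 207 ± 7.39 for CSTA, 258 ± 24.0 for CST3 and 186 ± 21.4 TPM for CSTB (SD, n = 3 each), all below CTSC at 411.

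The remaining genes of this list were at the edge of detection. SERPINB3, a serpin that inhibits cysteine proteases, was at 1.51 ± 0.249 TPM (SD, n = 3), and SERPINB13 and SERPINB4 were at 0.599 ± 0.327 and 0.0800 ± 0.0702 TPM (SD, n = 3 each). SERPINB3 and SERPINB4 are near-identical paralogs, so that reads may be split between them. Whether SERPINB4 also acts on cysteine proteases was not tested. CST6 was called differently between replicates, at 0.644, 1.25 and 0 TPM from 2, 4 and 0 reads.

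All 9 genes for tagging with mannose 6-phosphate and for sorting were at or above 1 TPM. Of the receptors of the tag, M6PR was at 129 ± 12.7 TPM and IGF2R at 66.8 ± 7.66 TPM (SD, n = 3 each), and M6PR was above IGF2R in every replicate. GNPTAB and GNPTG, subunits of the enzyme that adds the tag, were at 31.7 ± 2.91 and 12.7 ± 3.05 TPM, and NAGPA, which uncovers it, was at 9.26 ± 1.24 TPM (SD, n = 3 each). The adaptors GGA1, GGA2 and GGA3 lay between 17.6 and 32.2 TPM, and SORT1, an alternative sorting receptor, was at 5.42 ± 0.507 TPM (SD, n = 3).

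Of the other lysosomal peptidases, SCPEP1, DPP7 and LGMN were above CTSD and below CTSC by mean deposited TPM. LGMN, at 57.2, 58.1 and 54.3 TPM, was above CTSD, at 61.3, 59.2 and 44.5 TPM, in replicate 3 only. With the canonical length SCPEP1, DPP7 and LGMN were at 72.0, 77.2 and 49.1 TPM by the mean, all below CTSD at 96.4. LGMN, the asparagine endopeptidase that processes CTSB, CTSL and other precursors, was at 56.5 ± 2.01 TPM (SD, n = 3). SCPEP1, DPP7, TPP1 and PRCP were at 88.6 ± 4.89, 64.8 ± 14.98, 19.6 ± 3.06 and 15.6 ± 0.527 TPM (SD, n = 3 each), and NAPSA, an aspartic protease of lung and kidney, had 0 reads, so that 5 of 6 were at or above 1 TPM. Among the partners of CTSA and the saposins, 5 of 5 were, with PSAP, the precursor of the saposins, highest at 328 ± 22.1 TPM, GM2A at 87.3 ± 9.13 TPM and GALNS at 11.3 ± 2.67 TPM (SD, n = 3 each).

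**Figure D4:**
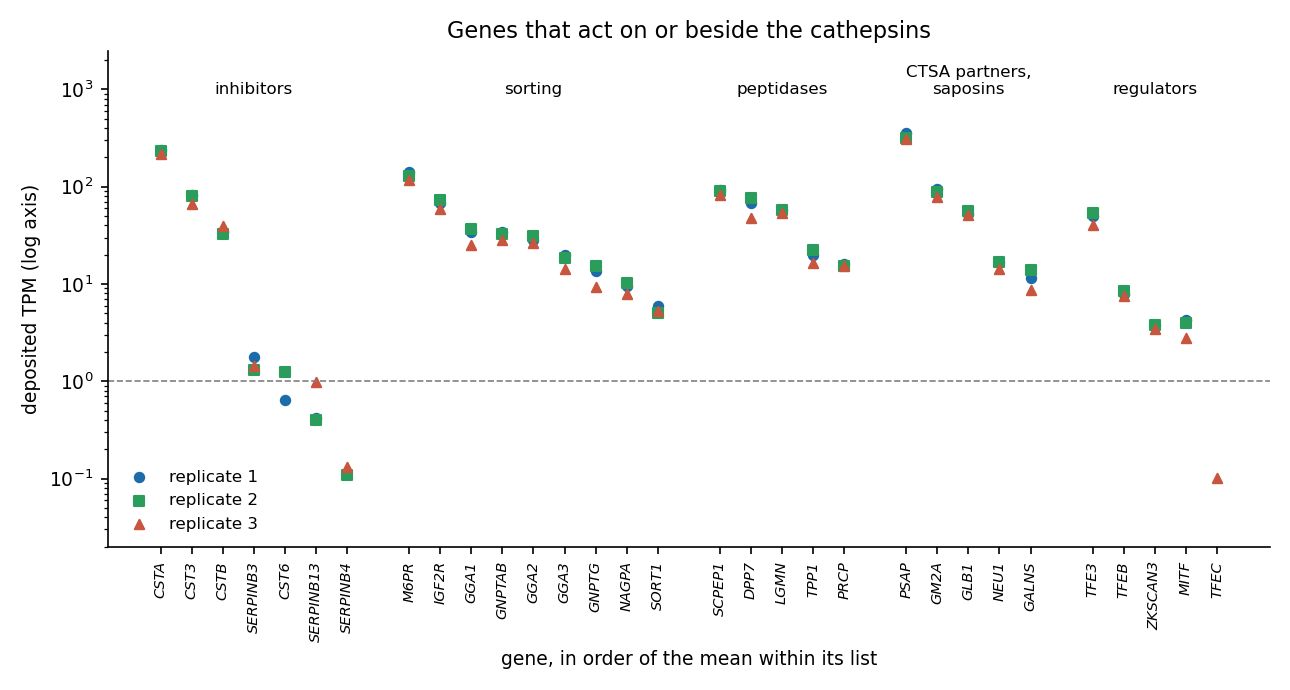
TPM on a log axis of inhibitors, sorting genes, peptidases, partners of CTSA with the saposins, and regulators, with a point for each replicate that is above 0 and a dashed line at 1 TPM. Genes with 0 reads in every replicate are left out, and CSTA at 229.7 TPM and PSAP at 328 TPM by the mean are the highest.

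The rest of the lysosome was read for its breadth. Of 23 other hydrolases 22 were at or above 1 TPM, with PPT1, a thioesterase, highest at 168 ± 13.3 TPM (SD, n = 3) and a median of 17.5 TPM. IDS was called differently between replicates, at 1.73, 1.41 and 0.795 TPM, and 90.7% of its canonical bases are also annotated in a gene beside it in the same orientation. All 11 genes listed for the lysosomal membrane, among them NPC2, whose protein is soluble, were at or above 1 TPM, led by CD63 at 340.4 ± 11.2 TPM (SD, n = 3). Of 25 subunits of the V-ATPase, the pump that acidifies the lysosome, 19 were, led by ATP6V0E1 at 230.0 ± 4.18 TPM (SD, n = 3), and ATP6V0A4 was called differently at 1.04, 0.948 and 1.58 TPM. Of the 6 subunits below 1 TPM, ATP6V0C at 0.321 ± 0.308 TPM (SD, n = 3) and ATP6V1B1 with 0 reads have 98.8% and 87.9% of their canonical bases shared with a gene on the same strand, so that their calls are uncertain.

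Transcription factors of the MiT/TFE family bind E-box letters in the promoters of many lysosomal genes. TFE3 was at 48.1 ± 6.56 TPM and above TFEB, at 7.97 ± 0.429 TPM, and MITF, at 3.65 ± 0.761 TPM (SD, n = 3 each), in each replicate, and TFEC had 3 reads in all. ZKSCAN3, a repressor of such genes, was at 3.67 ± 0.199 TPM (SD, n = 3), so that 4 of these 5 regulators were at or above 1 TPM. The E-box letters CACGTG, which read the same on both strands, were found in the promoters of CTSA and CTSD, 2 of 7 cathepsin promoters, against 7.23% of all 34943 RefSeq promoter windows of the same length. They are shown in capitals.

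CTSA, chr20:45891283-45891332, plus strand: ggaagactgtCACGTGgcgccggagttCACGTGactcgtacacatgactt
CTSD, chr11:1763938-1763987, minus strand: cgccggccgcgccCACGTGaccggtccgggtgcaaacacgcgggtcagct

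The second match in CTSA was flanked by T and A as TCACGTGA, found in 0.979% of all windows. GC box letters, GGGCGG on either strand, were in 7 of 7 cathepsin promoters and in 44.9% of all windows. CCAAT on either strand was in those of CTSC, CTSL and CTSV and in 34.6% of all, and TATAAA on either strand was in none of the 7 and in 11.6% of all. The windows of all genes include those of non-coding genes, and CTSB, CTSK and CTSS were not matched. The share of G and C in the 7 cathepsin windows lay between 58% for CTSC and 81% for CTSZ. The shares of windows with a match were not adjusted for it. A match of letters is a description of the window and not a binding site, and a relation of such matches to the levels was not tested.

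**Figure D5:**
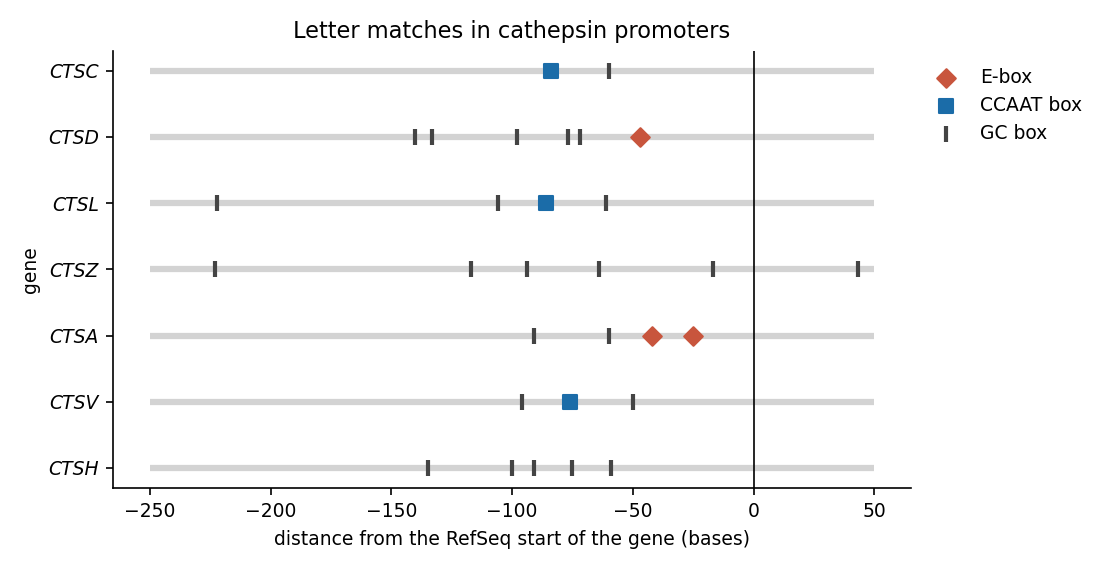
Positions of E-box, CCAAT and GC box letters in the promoter windows of 7 cathepsin genes, in order of mean TPM, against the distance in bases from the RefSeq start of the gene. CTSA holds 2 E-box matches and CTSD 1, all upstream of the start, and the CCAAT matches of CTSC, CTSL and CTSV lie at like distances upstream.

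Markers of other cell types bear on the low members. Of 6 fibroblast markers 2 were at or above 1 TPM, DCN at 9.05 ± 0.300 TPM and COL1A1 at 4.96 ± 0.390 TPM (SD, n = 3 each), while COL1A2 and THY1 had 0 reads and the summed list lay between 13.6 and 14.8 TPM. Of 4 endothelial markers PECAM1, at 1.77 ± 0.190 TPM (SD, n = 3), was at or above it, CDH5 had 0 reads, and the summed list lay between 1.77 and 2.16 TPM. The osteoclast list summed to between 0.0675 and 0.639 TPM. LYZ, of the leukocyte list, was called differently between replicates, at 1.02, 1.12 and 0.750 TPM. The part of other cells in the levels of CTSH, CTSK and CTSS was not tested, and in bulk RNA few cells with a high level cannot be told apart from many cells with a low one.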

How the data were processed

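RNA-seq was measured in 3 replicates of 1 condition. By the paper's methods the authors used Seq2science, with hg38 as the genome, for mapping and counting, and the submitters' processing notes name STAR, fastp, MultiQC and GRCh38.p14. The authors deposited TPM for each gene, without pooling of replicates. The release of the annotation, and whether strand was used, are not given in the sources used here. No column was left unused.

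Gene models were taken from GENCODE release 44, in which 62700 identifiers were found and 54 were not. TPM multiplied by the length of the longest transcript, less 1 base per exon, and divided by the smallest step in its library gave whole reads (tolerance 0.01), and a limit of 3 reads was used for genes with 0 reads. Levels were recomputed with canonical and union lengths, the latter and the unshared length chosen after the data were seen. A pseudocount of 1 was used on the log2 scale, and the counting error is the square root of the mean of 1 over the reads, on that scale. Values of neighbouring genes were compared within replicates by an exact two-sided sign-flip permutation test. The p-values measure only the spread between these samples, which may be technical, and all limits from reads cover counting error only. Windows of 50 bases were searched in all annotated transcripts of GENCODE, and promoters came from RefSeq.

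The 158 genes in 18 lists, the members among them, were chosen with earlier results of these data known. Named are all members, the lists on other cathepsins, inhibitors, sorting, peptidases, CTSA partners and regulators, the highest gene and the genes called differently between replicates of every other list, and genes that share exons with a member. No gene was ranked by likeness to a member, since 3 replicates of 1 condition hold no pattern across conditions. Genes named outside this rule were chosen after their values were seen. The step that recovers reads was tested on simulated reads. The same gene lengths were used to make and to recover them, so that test cannot show whether the lengths are right. Python 3.11.15, numpy 2.4.6, pandas 2.3.3 and matplotlib 3.10.9 were used.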

Additional observations from a re-analysis of the deposited data

How the results depend on the processing

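No paired comparison of samples was possible because 1 condition was measured and nothing pairs its replicates. Pairing was used only for neighbouring genes within a library, in the sign-flip permutation test. The number of cathepsins at or above 1 TPM stayed between 8 (cutoff of 2 TPM) and 10 (cutoff of 0.5 TPM) and was 9 under the other alternatives. The median of the member means, 21.6 TPM, was 77.5 with the canonical length, 24.8 with protein-coding genes only in the total, 18.96 with the union of exons and 85.1 with unshared canonical bases, both of the last chosen after seeing the data. The summed level, 446 TPM, was 979, 511, 292 and 1138 in this order. Leaving out 1 replicate gave medians from 20.3 to 22.8 TPM and sums from 431 to 473 TPM. With the canonical length the log2 ratio reversed for CTSB to CTSC (-1.54), CTSD to CTSL (-0.22) and CTSL to CTSZ (-0.29). With the union of exons it reversed for CTSC to CTSD (-0.16) and CTSZ to CTSA (-0.25). Of the 9 neighbouring pairs, the number that kept the deposited order in every replicate was 6 with the canonical length, 7 with the union of exons and between 8 and 9 when 1 replicate was left out. The median spread, 0.17, was 0.10 with protein-coding genes only in the total, and lay between 0.10 without replicate 3 and 0.20 without replicate 1. What lowers it there was not tested. Depth limits CTSS and CTSK, with 39 and 133 reads in all.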
